A study of Mus musculus with 12 samples.

Results

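The gene for tumour necrosis factor (Tnf), its 2 receptors Tnfrsf1a and Tnfrsf1b, the related ligands Tnfsf10, Tnfsf15 and Ltb, and the related receptors Fas and Tnfrsf21 were followed through an LPS tolerance experiment in mouse macrophages. These 8 genes were chosen by name. A probe set with a single gene symbol was present for 7 of the 8, among 18193 genes measured in all, and Tnfsf15 was not analysed here. RNA came from macrophages grown in culture from C57Bl/6 bone marrow with M-CSF, the growth factor that drives macrophage differentiation, and was hybridised to Affymetrix arrays. The restimulated cells received 100 ng/ml LPS for 18 h, fresh medium, a rest of 2 h and then 100 ng/ml LPS again. The pretreated cells received the 18 h of LPS and the rest but no further LPS. The cells given LPS once spent the 18 h without it and met 100 ng/ml LPS only after the rest, and the untreated cells met none. Each of the 4 groups had 3 biological replicates with the letters A, B and C, giving 12 arrays. How long the last LPS exposure lasted, and how old the mice were, is not stated in the labels.

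Macrophages make TNF as a membrane-bound trimer, which the protease ADAM17 can release from the cell surface. TNF receptor 1, the product of Tnfrsf1a, carries a death domain and can lead to NF-kappaB activation or to cell death, whereas TNF receptor 2, the product of Tnfrsf1b, has no death domain. LPS is sensed by Toll-like receptor 4, and macrophages that have met it before are known to release less TNF when they meet it again, a state called endotoxin tolerance.

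The values are array intensities, tested on the scale log2(intensity + 16) with limma. A gene was called in a comparison where its change was at least 2-fold and its p-value, adjusted by Benjamini and Hochberg over all 18193 genes, was under 0.05. There were 5 comparisons. The first LPS response sets cells given LPS once against untreated cells, and the second LPS response sets restimulated cells against pretreated cells. The second response minus the first measures how far the 2 responses differ. The pretreatment effect compares pretreated with untreated cells, and the level after LPS compares restimulated cells with cells given LPS once. They share groups of arrays and so are not independent of each other. Each array measured the RNA of a whole cell sample, so fewer cells expressing a gene and less RNA per cell cannot be told apart.

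The array of restimulated replicate C stood apart, with a mean intensity of 246.7 against 310 to 317 on the other 11 arrays. Of 6229 genes with mid-range intensities of 100 to 1000, 91.6% were lower on it than on the mean of restimulated A and B, with a median log2 difference of -0.516. The 7 macrophage markers all reached an intensity of 100 on at least 1 array, and no measured T cell, B cell, natural killer cell or dendritic cell marker reached it on any array. Of the 4 neutrophil markers measured, Ngp and Camp did, at up to 959 and 218, while Elane and Mpo did not. Of the 4 fibroblast markers, the collagen genes Col1a1, Col1a2 and Col3a1 were lower on every C array than on any A or B array. The summed intensity of the 4 markers was 2316 to 5045 on the A arrays, 4669 to 7949 on the B arrays and 150 to 228 on the C arrays. Pdgfra was under 100 throughout and overlapped between letters, at 18.4 to 42.3 on the A arrays and 14.6 to 19.9 on the C arrays. The part of these markers in the results was not tested.

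The promoters of 5 of the genes are shown because 4 of them changed after LPS in the data below and the other, Ltb, is the neighbour of Tnf and did not pass the test. Ltb and Tnf lie next to each other on chromosome 17, on opposite strands, with 3061 bases between them. The sequences are the 250 bases before the start used in the RefSeq promoter table of GRCm38.p6, written 5′ to 3′ on the gene's own strand. They lie at chr17:35202008-35202257 on the minus strand for Tnf, at chr4:145246871-145247120 on the minus strand for Tnfrsf1b and at chr19:34290409-34290658 on the plus strand for Fas. Those of Tnfrsf21 and Ltb lie at chr17:43016305-43016554 and chr17:35194257-35194506, both on the plus strand. Capitals mark matches on either strand to the TATA box TATAAA, the GC box GGGCGG, the AP-1 site TGANTCA, the IRF core AANNGAAA, the CCAAT box and the NF-kappaB consensus.
Tnf: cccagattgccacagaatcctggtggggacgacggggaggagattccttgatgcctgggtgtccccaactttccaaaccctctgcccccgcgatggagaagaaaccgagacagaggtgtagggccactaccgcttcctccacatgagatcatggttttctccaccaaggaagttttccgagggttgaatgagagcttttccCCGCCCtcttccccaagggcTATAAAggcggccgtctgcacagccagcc
Tnfrsf1b: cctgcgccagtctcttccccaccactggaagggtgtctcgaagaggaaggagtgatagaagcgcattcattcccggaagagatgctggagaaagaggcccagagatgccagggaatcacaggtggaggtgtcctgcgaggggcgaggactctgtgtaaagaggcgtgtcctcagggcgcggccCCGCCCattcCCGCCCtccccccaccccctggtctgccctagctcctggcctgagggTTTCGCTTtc
Fas: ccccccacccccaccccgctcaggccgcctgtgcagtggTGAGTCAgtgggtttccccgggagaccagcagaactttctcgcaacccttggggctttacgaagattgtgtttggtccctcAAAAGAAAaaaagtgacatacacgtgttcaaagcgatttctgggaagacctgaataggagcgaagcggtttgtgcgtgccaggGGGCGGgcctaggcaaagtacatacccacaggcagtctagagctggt
Tnfrsf21: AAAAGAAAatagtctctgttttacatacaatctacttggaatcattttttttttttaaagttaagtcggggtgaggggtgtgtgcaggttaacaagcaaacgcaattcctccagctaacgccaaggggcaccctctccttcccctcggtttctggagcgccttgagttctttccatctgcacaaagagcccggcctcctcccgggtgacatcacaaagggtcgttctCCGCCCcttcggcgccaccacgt
Ltb: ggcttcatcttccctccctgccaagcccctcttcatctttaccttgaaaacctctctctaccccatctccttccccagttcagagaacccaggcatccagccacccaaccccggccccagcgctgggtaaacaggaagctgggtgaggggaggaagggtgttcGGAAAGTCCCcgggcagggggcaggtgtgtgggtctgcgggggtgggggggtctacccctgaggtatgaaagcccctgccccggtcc
For Fas that start lies inside the annotated gene, which begins at position 34290647, so the last 12 bases of its window fall within the gene. The Tnf window held a TATA box 29 to 24 bases before the start and a GC box. The Ltb window held the only match to the NF-kappaB consensus among the 5, 87 to 78 bases before the start. That consensus was GGGRNNYYCC, where R is A or G, Y is C or T and N is any base. Looser forms of it and bases further upstream were not searched. The Fas window held an AP-1 site, an IRF core and a GC box, that of Tnfrsf21 an IRF core and a GC box, and that of Tnfrsf1b an IRF core and 2 GC boxes. No CCAAT box was found in these windows. Among 32851 mouse promoter windows of the same length, 7.25% held the NF-kappaB consensus, 12.4% the TATA box, 6.75% the AP-1 site, 21.3% the IRF core, 32.7% the GC box and 33.8% the CCAAT box. The motifs did not overlap each other in the 5 windows, and a match describes the letters only.

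Tnf, the ligand that gives the family its name, rose strongly after LPS in both settings and reached a lower level in cells that had met LPS before. Its intensity was 2241, 3719 and 2010 on the restimulated arrays A, B and C and 123, 265 and 178 on the pretreated arrays. It was 5586, 7702 and 8019 on the LPS-once arrays and 337, 283 and 394 on the untreated arrays. The order was LPS once, restimulated, untreated, pretreated, and no 2 neighbours in that order overlapped. In the first LPS response Tnf rose by 4.32 ± 0.29 on the log2 scale (SE, limma adjusted p = 1.22e-05), a 20.0-fold change. In the second LPS response it rose by 3.71 ± 0.29 (limma adjusted p = 0.000712), a 13.1-fold change.

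After LPS the mean intensity of Tnf was 2656 ± 927 in restimulated cells, against 7102 ± 1323 in cells given LPS once (SD, n = 3 each), and the restimulated mean was 37.4% of that in cells given LPS once. The log2 difference was -1.45 ± 0.29 with a 95% interval of -2.1 to -0.79 (limma adjusted p = 0.00951). By letter it was -1.31 in A, -1.05 in B and -1.99 in C. The 2 responses themselves were not shown to differ: the second minus the first was -0.61 ± 0.41 on the log2 scale, with an interval of -1.54 to 0.31 (limma adjusted p = 0.518). Tnf stood at 189 ± 71.6 in pretreated cells, against 338 ± 55.8 in untreated cells (SD, n = 3 each), and every pretreated array was below every untreated one. That log2 difference, -0.83 ± 0.29, did not pass the test (limma adjusted p = 0.281).
Without restimulated C the level after LPS was -1.28 (limma adjusted p = 0.0232) and the second response 3.88 (limma adjusted p = 0.00279). With the letters A and B only, an alternative added after the fibroblast markers were seen, the level after LPS was -1.18 (limma adjusted p = 0.146) and the second response 3.87 (limma adjusted p = 0.144), and neither was called.

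**Figure D1:**
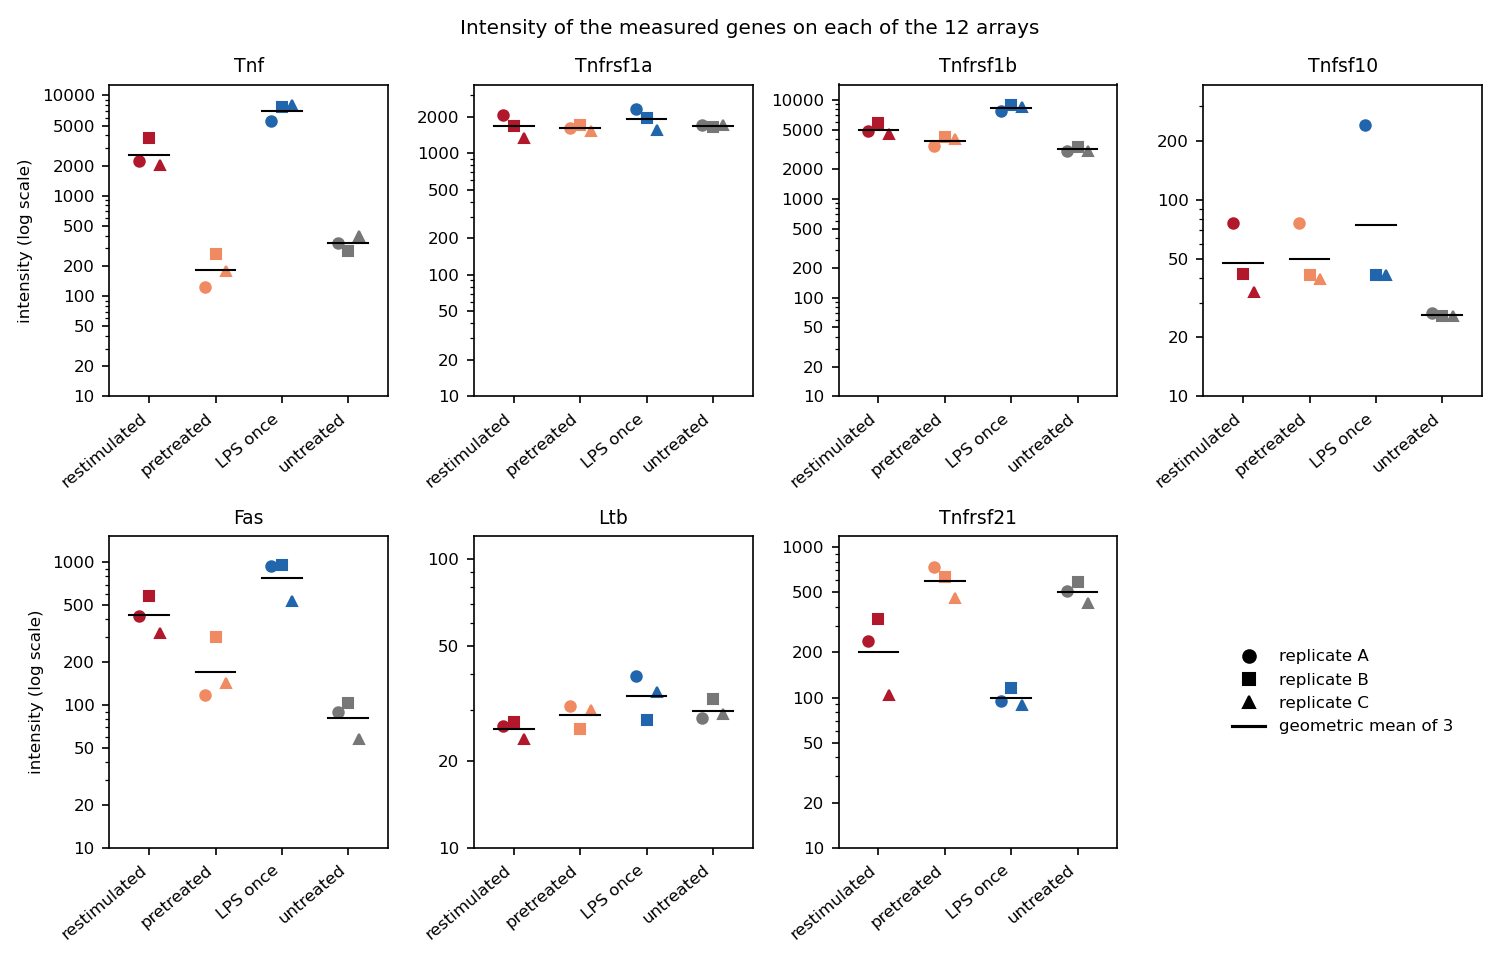
Intensity (log scale, arbitrary units) of the 7 measured genes on each of the 12 arrays, by group, with a symbol for each replicate letter and a line at the geometric mean of 3. Each panel has its own axis, and levels are not comparable between genes. The LPS-once arrays of Tnf, at 5586 to 8019, lie above the restimulated arrays, at 2010 to 3719.

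Tnfsf10 encodes TRAIL, a ligand that can trigger cell death through death receptors. Its intensity was 77, 42 and 34 on the restimulated arrays A, B and C, 77, 41 and 40 on the pretreated arrays, 242, 41 and 42 on the LPS-once arrays and 26, 26 and 26 on the untreated arrays. All untreated arrays were below all others, and LPS-once A stood far above B and C. The first LPS response was 1.18 ± 0.52 on the log2 scale and did not pass the test (limma adjusted p = 0.111). By letter it was 2.6 in A and 0.46 in both B and C, and without LPS-once A the fitted value was 0.45. The fit with the replicate letter as a block called it, at the same 1.18 (limma adjusted p = 0.0402). The second response was -0.05 with an interval of -1.21 to 1.12 (limma adjusted p = 0.975). On the other probe sets of Tnfsf10, LPS-once A, B and C had 111, 22 and 29 on the second and 47, 17 and 15 on the third. LPS-once A was thus the highest of the 12 arrays on all 3, and the first response was not called on any of them.

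Ltb encodes lymphotoxin beta, a membrane ligand that pairs with lymphotoxin alpha. It stayed between 24 and 39 on all 12 arrays, below the 100 used here to mark dim genes. Its intensity was 26, 27 and 24 on the restimulated arrays, 31, 26 and 30 on the pretreated arrays, 39, 28 and 35 on the LPS-once arrays and 28, 33 and 29 on the untreated arrays. All neighbouring groups overlapped. No comparison called it, and the largest log2 value was -0.25 ± 0.09 for the level after LPS (limma adjusted p = 0.099).

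Tnfrsf1a, the death-domain receptor for TNF, was called in no comparison. Its intensity was 2066, 1676 and 1338 on the restimulated arrays, 1614, 1718 and 1527 on the pretreated arrays, 2295, 1937 and 1543 on the LPS-once arrays and 1706, 1629 and 1715 on the untreated arrays. All neighbouring groups overlapped. The 95% intervals bound the log2 change at -0.2 to 0.54 in the first response and -0.33 to 0.41 in the second, so a 2-fold change lay outside both (limma adjusted p = 0.447 and 0.918).

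Tnfrsf1b, the TNF receptor without a death domain, rose after the first LPS, and the second LPS moved it less. Its intensity was 4807, 5791 and 4489 on the restimulated arrays and 3402, 4179 and 4021 on the pretreated arrays. It was 7747, 8945 and 8420 on the LPS-once arrays and 3061, 3330 and 3068 on the untreated arrays. The groups followed the order LPS once, restimulated, pretreated, untreated, with no overlap between neighbours. The first response was 1.4 ± 0.11 on the log2 scale (limma adjusted p = 2.38e-05), a 2.64-fold rise.

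The second response of Tnfrsf1b, 0.37 ± 0.11, did not pass the test (limma adjusted p = 0.093). The difference between the responses did: the second minus the first was -1.03 ± 0.16 with an interval of -1.38 to -0.68 (limma adjusted p = 0.00919), and it was -0.84, -0.95 and -1.29 in the letters A, B and C. This difference is close to the 2-fold limit. It came to -0.98 without LPS-once B, -0.97 without pretreated B, -1.0 without pretreated C, -1.0 without restimulated A and -0.95 without restimulated C, all just inside that limit with limma adjusted p from 0.00886 to 0.0276. With the letters A and B only it was -0.9 (limma adjusted p = 0.121). After LPS the restimulated mean was 5029 ± 679, against 8371 ± 600 in cells given LPS once (SD, n = 3 each), and so 60.1% of it. That log2 difference, -0.74 ± 0.11, passed on its p-value (limma adjusted p = 0.00209) and stayed under 2-fold.

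A second probe set of Tnfrsf1b differed widely between replicates. It gave 890, 1494 and 443 on the restimulated arrays, 340, 522 and 302 on the pretreated arrays, 565, 2139 and 794 on the LPS-once arrays and 316, 257 and 277 on the untreated arrays. LPS-once B was far above A and C, and the restimulated and LPS-once arrays overlapped. The first response on it was 1.75 ± 0.51 and was called (limma adjusted p = 0.0286), while the difference between the responses was -0.63 ± 0.72 and was not (limma adjusted p = 0.774).

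Fas, the death-domain receptor for Fas ligand, rose after the first LPS. Its intensity was 420, 579 and 322 on the restimulated arrays and 117, 299 and 144 on the pretreated arrays. It was 940, 957 and 534 on the LPS-once arrays and 90, 103 and 58 on the untreated arrays. The restimulated arrays overlapped the LPS-once arrays and lay above all pretreated arrays, which in turn lay above all untreated ones. The first response was 3.03 ± 0.36 on the log2 scale (limma adjusted p = 0.000213), an 8.19-fold rise.

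The second response of Fas was 1.24 ± 0.36 (limma adjusted p = 0.0919), and the second minus the first was -1.8 ± 0.51 with an interval of -2.94 to -0.65 (limma adjusted p = 0.094). Neither was called, although the difference was below 0 in all 3 letters, at -1.47, -2.11 and -1.81. The replicate letters pair the samples, and with the letter as a block both were called, with limma adjusted p = 0.0236 for the second response and 0.0184 for the difference. Without pretreated B the second response was 1.61 and was called as well (limma adjusted p = 0.0237). The pretreatment effect was 0.95 ± 0.36 on the log2 scale (limma adjusted p = 0.32).

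Tnfrsf21, which encodes death receptor 6, moved the other way and fell after LPS. Its intensity was 236, 333 and 104 on the restimulated arrays and 741, 633 and 459 on the pretreated arrays. It was 95, 115 and 89 on the LPS-once arrays and 514, 588 and 427 on the untreated arrays. Both groups without recent LPS overlapped at the top, and both groups with recent LPS overlapped at the bottom. In the first response it fell by 2.18 on the log2 scale (SE 0.34, limma adjusted p = 0.000967), a 4.53-fold change.

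In the second response Tnfrsf21 fell by 1.49 on the log2 scale (SE 0.34, limma adjusted p = 0.0426). By letter the second response was -1.59, -0.89 and -1.99 in A, B and C. It was no longer called when any array other than restimulated B was left out, with values of -1.68 to -1.05 and limma adjusted p of 0.0542 to 0.148. The fit with the letter as a block kept the call (limma adjusted p = 0.0193). The second minus the first response was 0.69 ± 0.48 (limma adjusted p = 0.535). The level after LPS was 0.93 ± 0.34 (limma adjusted p = 0.103), and here restimulated C decided the call: without it the value was 1.37 (limma adjusted p = 0.00348). A second probe set fell in the first response by 1.18 (SE 0.21, limma adjusted p = 0.00269), and its second response of -0.89 was not called (limma adjusted p = 0.0612).

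**Figure D2:**
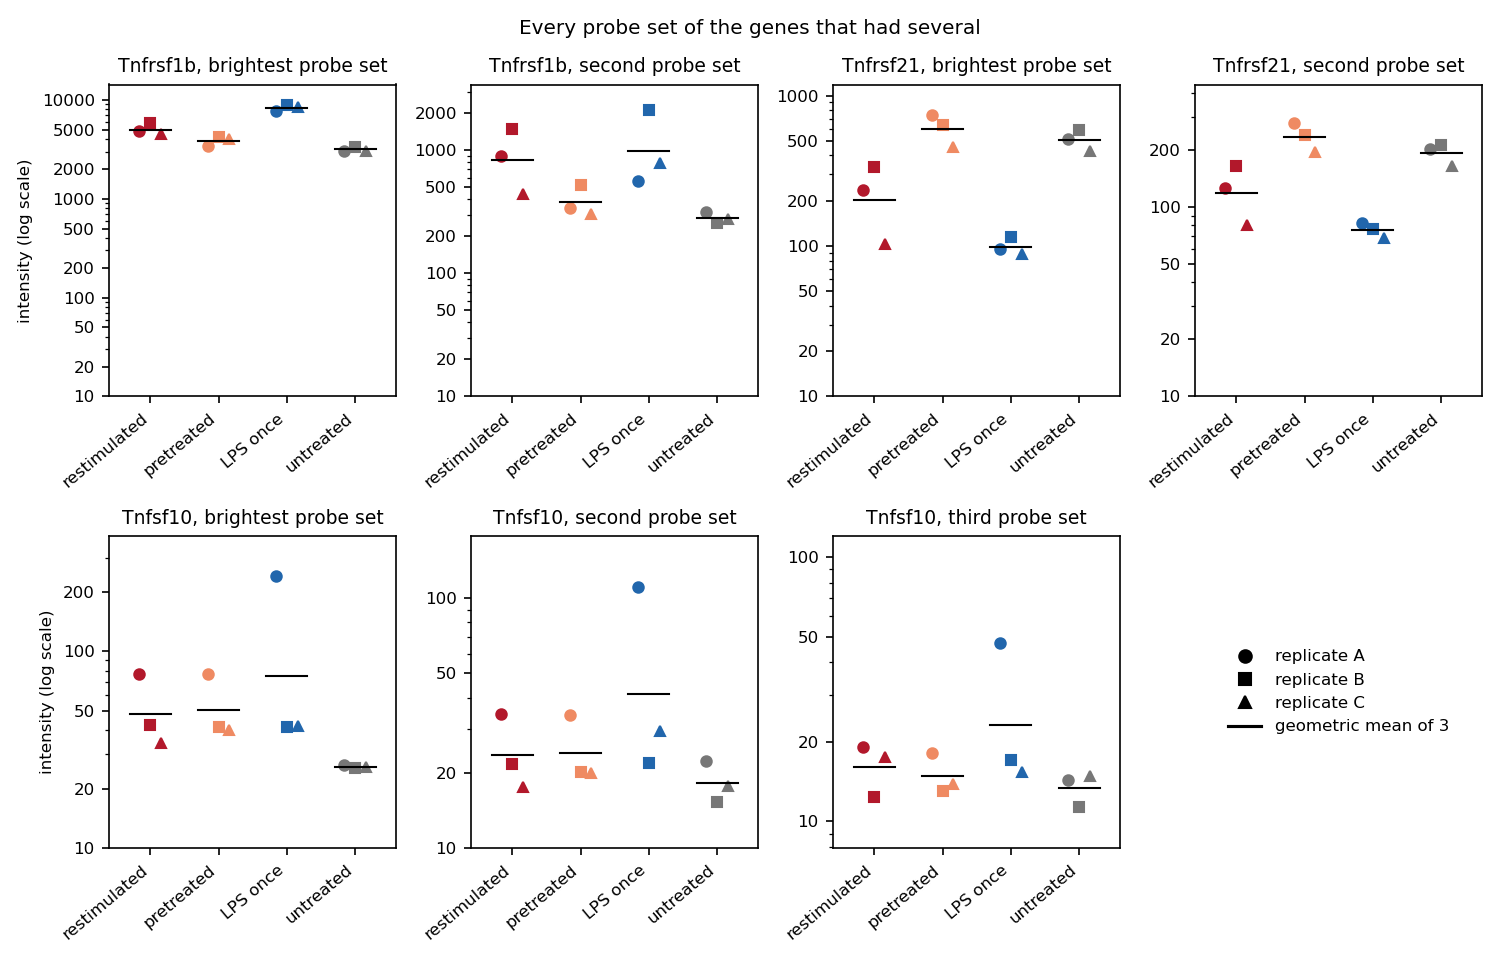
Intensity (log scale, arbitrary units) on every probe set of the 3 genes that had several, by group, with a symbol for each replicate letter and a line at the geometric mean of 3. LPS-once A is the highest of the 12 arrays on all 3 probe sets of Tnfsf10, and LPS-once B is the highest on the second probe set of Tnfrsf1b.

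Counted together, 3 of the 7 genes were called higher in the first LPS response, where 3.92% of all genes were, and 1 was called lower, where 9.16% were. In the second response 1 was called higher and 1 lower, against 0.665% and 1.32% of all genes. The split over all genes moved with the scaling: in the first response 713 were higher and 1666 lower, and 918 and 1150 after quantile normalization, and in the second 121 were higher and 240 lower, and 182 and 150 after it. In the pretreatment effect limma called 0 of the 7, where 0.297% of all genes were higher and 0.319% lower; at an unadjusted p under 0.05 there were 2 higher (Tnfrsf1b and Fas) and 1 lower (Tnf). In the difference between the responses limma called 0 members higher and 1 lower, against 1.24% and 1.45% of all genes, and at an unadjusted p under 0.05 it was 0 and 2. In the level after LPS it called 0 higher and 1 lower, against 2.51% and 3.21%, and at an unadjusted p under 0.05 it was 1 and 4. The shares of all genes are for called genes only, and none is given for the unadjusted counts. The members' median log2 value was 1.18 in the first response, 0.24 in the pretreatment effect, 0.04 in the second response, -0.61 in the difference and -0.55 in the level after LPS. Over all genes the same medians were 0.0425, 0.0191, -0.0167, -0.0164 and -0.00271.

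**Figure D3:**
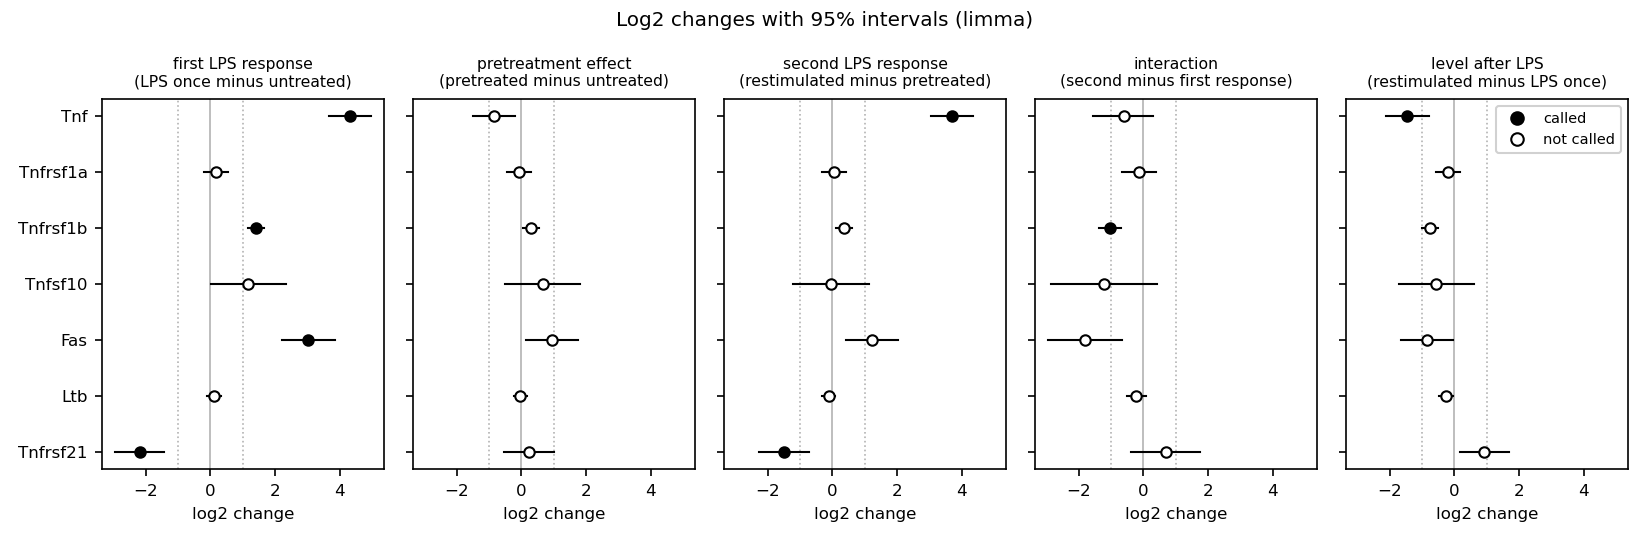
Log2 changes of the 7 genes with 95% intervals from limma in each of the 5 comparisons, with filled points for called genes and dotted lines at 2-fold. Tnf has the largest change in both LPS responses, at 4.32 and 3.71, and Tnfrsf21 lies below 0 in both, at -2.18 and -1.49. In the second response Tnfsf10, at -0.05, and Ltb, at -0.1, also lie below 0 and were not called.

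The fall of Tnfrsf21 and the rise of Tnf, Tnfrsf1b and Fas ran through the same arrays. Over the 12 arrays, which form 4 groups and carry all the genes compared, the Pearson r on the log2 scale was 0.901 between Tnf and Tnfrsf1b, 0.87 between Tnf and Fas, 0.935 between Tnfrsf1b and Fas, and -0.903 between Tnf and Tnfrsf21. Tnfrsf1a and Ltb had r of 0.352 and 0.163 with Tnf.
Among the 8939 other genes that reached a group mean of 100, the most similar to Tnf over the 12 arrays were Ccl3 (r = 0.994), Zc3h12c (0.985) and Tnfaip3 (0.984). For Tnfrsf1b they were Rnaset2a (0.983), Rab11fip1 (0.982) and Car13 (0.981), and for Fas they were Tma16 (0.977), Dram1 (0.973) and Slc2a6 (0.973). For Tnfrsf21 they were Ypel2 (0.987), Tmem71 (0.984) and Abcd3 (0.982). The nearest genes of the remaining members had lower r, with Usb1 (0.936), Tor1aip1 (0.929) and Tpst1 (0.918) for Tnfsf10, and Dnajb1 (0.915), Gcc1 (0.913) and Il13ra1 (0.909) for Tnfrsf1a. For the dim Ltb they were Zkscan6 (0.913), Aatf (0.904) and Dbr1 (0.877).

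The other genes of the pathway were taken from 4 lists with 79 genes, of which 71 were measured. Over all genes tested limma called 3.92% higher and 9.16% lower in the first response, 0.665% and 1.32% in the second, 1.24% and 1.45% in the difference between them, and 2.51% and 3.21% in the level after LPS. Of the 11 other ligands measured, 1 was called higher in the first and in the second response and 1 lower in the difference and in the level after LPS, each time Tnfsf9, which encodes 4-1BB ligand. Tnfsf9 had 325, 372 and 330 on the restimulated arrays and 27, 94 and 48 on the pretreated arrays. It had 2414, 5422 and 6184 on the LPS-once arrays and 49, 76 and 30 on the untreated arrays. Its first response was 6.06 ± 0.42 on the log2 scale and its second 2.42 ± 0.42 (limma adjusted p = 0.0161), and the second minus the first was -3.64 ± 0.59 (limma adjusted p = 0.0122). The second response was not called without pretreated A, at 2.1 (limma adjusted p = 0.063), or without pretreated C, at 2.39 (limma adjusted p = 0.0761). Tnfsf13b, the B cell survival factor BAFF, had 106, 243 and 171 on the pretreated arrays, against 35, 57 and 38 on the untreated arrays. This pretreatment effect of 1.62 ± 0.38 was not called (limma adjusted p = 0.099). It was called with the letter as a block (limma adjusted p = 0.0322), and also without restimulated B (limma adjusted p = 0.021). That array is not part of this comparison, so the value stayed at 1.62 and only the shared estimate of the spread changed. On the second probe set of Tnfsf13b the pretreatment effect was 0.17 (limma adjusted p = 0.431). The level of Tnfsf13b after LPS, at 1.08 ± 0.38 (limma adjusted p = 0.0926), was likewise called with the block (limma adjusted p = 0.0328) and was -0.05 on the second probe set (limma adjusted p = 0.723). In the second response it had -0.85 ± 0.38, which was called only without restimulated B, at -1.33 (limma adjusted p = 0.0243), and it had -0.13 on the second probe set. Tnfsf4, the ligand of OX40, had a first response of 0.58 ± 0.38 (limma adjusted p = 0.277). The median log2 value of the ligands in the first response was 0.139.

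Over all genes 3.92% were called higher in the first response and 0.665% in the second. In the difference 1.45% were called lower, and in the level after LPS 3.21%. Of the 23 other receptors measured, 2 were called higher in the first response and 1 in the second, and 1 was called lower in the difference and 1 in the level after LPS. Cd40, the receptor for the T cell ligand CD154, accounted for 1 call in each of these. It had 1181, 428 and 377 on the restimulated arrays and 159, 172 and 115 on the pretreated arrays. It had 8219, 7997 and 8799 on the LPS-once arrays and 164, 129 and 98 on the untreated arrays. Its first response was 5.86 ± 0.37, its second 1.87 ± 0.37 (limma adjusted p = 0.0252), and the second minus the first -3.99 ± 0.52 (limma adjusted p = 0.00515). The second response was not called without pretreated A, at 1.92 (limma adjusted p = 0.0831), or without pretreated C, at 1.71 (limma adjusted p = 0.115). The other call was Tnfrsf9, the receptor for 4-1BB ligand, whose first response was 1.31 ± 0.38 (limma adjusted p = 0.0232). LPS-once A, B and C had 248, 85 and 66 for it, against 39, 32 and 37 on the untreated arrays, and without LPS-once A the value was 0.8. Its call was also lost without untreated A, B or C, at 1.36, 1.26 and 1.32 (limma adjusted p of 0.0539 to 0.07). Tnfrsf12a, the receptor for TWEAK, and Tnfrsf13b, a receptor for BAFF, had pretreatment effects of -0.76 ± 0.52 and -0.71 ± 0.41 and were not called. Tnfrsf11a, which encodes the osteoclast receptor RANK, had a level after LPS of -0.90 ± 0.42 (limma adjusted p = 0.211), and without restimulated A it was -1.39 and was called (limma adjusted p = 0.0297). The median log2 value of these receptors in the first response was 0.115.

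Against shares of all genes of 3.92% higher in the first response, 1.45% lower in the difference and 3.21% lower in the level after LPS stand 8 genes for TNF shedding and trafficking. Of these, Rhbdf2 was called higher in the first response and lower in the difference and in the level after LPS. Rhbdf2 encodes an inactive rhomboid protein that carries ADAM17 to the cell surface. It had 1215, 991 and 962 on the restimulated arrays and 469, 673 and 516 on the pretreated arrays. It had 2185, 2805 and 2613 on the LPS-once arrays and 514, 544 and 605 on the untreated arrays. Its first response was 2.16 ± 0.15 and its second 0.92 ± 0.15, and the second minus the first was -1.23 ± 0.21 (limma adjusted p = 0.0156). The second response was under 2-fold. It was past 2-fold without pretreated B, at 1.07 (limma adjusted p = 0.00372), and with quantile normalization, at 1.12 (limma adjusted p = 0.00542). The related Rhbdf1 was called lower in the level after LPS, at -1.37 ± 0.18 (limma adjusted p = 0.00121). The metalloprotease gene Adam10 had a first response of -0.96 ± 0.16, just under 2-fold (limma adjusted p = 0.00123). It was called lower on its second probe set, at -1.1 (limma adjusted p = 0.0284), and with quantile normalization, at -1.01 (limma adjusted p = 0.000686). Litaf, named for a role in LPS-induced TNF transcription, had a second response of -0.54 ± 0.15 and was not called (limma adjusted p = 0.0764). Timp3, an inhibitor of ADAM17, had 136, 320 and 33 on the restimulated arrays and 549, 937 and 61 on the LPS-once arrays. It was low on the C arrays like the collagen genes. Its level after LPS, -1.35 ± 1.24, was not called (limma adjusted p = 0.558), and with the letter as a block it was (limma adjusted p = 0.00947). The list's median was 0.27 in the first response and -0.279 in the level after LPS.

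Of the 29 genes measured for signalling below the TNF and death receptors, limma called 10 higher and 0 lower in the first response, and 5 higher and 0 lower in the second, against the shares of all genes given above of 3.92% higher and 9.16% lower, and 0.665% higher and 1.32% lower. At an unadjusted p under 0.05, for which no share of all genes is given, the lower genes numbered 6 and 5. The 4 largest first responses were those of Traf1, a TRAF-family adaptor, at 5.11 ± 0.49, Tnfaip3, which encodes the NF-kappaB inhibitor A20, at 3.91 ± 0.41, Cflar, which encodes the caspase-8 inhibitor c-FLIP, at 2.44 ± 0.15, and Tnip1, which encodes an A20-binding protein, at 2.41 ± 0.18. In the second response the same 4 genes rose by 2.71 ± 0.49, 3.06 ± 0.41, 1.37 ± 0.15 and 1.52 ± 0.18 on the log2 scale, in that order, with limma adjusted p of 0.00315 to 0.0194. The fifth was Birc3, a ubiquitin ligase gene named here after its values were seen, at 1.17 ± 0.18 (limma adjusted p = 0.0106), and 0.96 without pretreated A. On the second probe set Birc3 was 0.37 (limma adjusted p = 0.396) and Traf1 1.66 (limma adjusted p = 0.0863), both not called. Cflar was higher there, at 4.62 in the first response and 2.52 in the second, and stayed called. Traf1 was also not called in the second response without pretreated A, at 2.17, without pretreated C, at 2.63, or without restimulated C, at 2.71 (limma adjusted p of 0.0546 to 0.0905). The count of 5 was 3 without pretreated A or on the second probe sets, and 0 with the letters A and B only or with only the arrays of the compared groups. The count of 0 lower was 2 without restimulated B, where Traf5 and Bid were called, and 1 with only genes of a group mean of at least 100, where Traf5 was, both genes named after their values were seen.

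In the difference between the responses limma called 1.24% of all genes higher and 1.45% lower. It called 0 signalling genes higher, or 1 at an unadjusted p under 0.05. It called 3 lower, namely the kinase gene Map3k5 at -1.61 ± 0.29, the ubiquitin ligase gene Birc2 at -1.38 ± 0.28 and Cflar at -1.07 ± 0.21, with limma adjusted p of 0.0191 to 0.0286. On the second probe sets Map3k5 was -1.51 and not called (limma adjusted p = 0.0771), and Cflar was -2.1. The count of 3 was 0 without untreated A or untreated C and 1 without untreated B or without LPS-once B. It was also 1 with the letters A and B only, but there none of Map3k5, Birc2 and Cflar was called and the 1 was another gene of the list. In the level after LPS limma called 2.51% of all genes higher and 3.21% lower. Of the signalling genes 1 was called higher there and 6 lower. The lower calls were led by Map3k5 at -2.07 ± 0.20. It had 409, 355 and 249 on the restimulated arrays, against 1138, 1473 and 1793 on the LPS-once arrays. The others among the 4 largest were Tnfaip3 at -1.82 ± 0.41, Birc2 at -1.39 ± 0.20 and Tab2, which encodes an adaptor of the TAK1 kinase, at -1.20 ± 0.16, with limma adjusted p of 0.00132 to 0.0153. Tnfaip3 was not called there without LPS-once B, at -1.76 (limma adjusted p = 0.0503), or without LPS-once C, at -1.77 (limma adjusted p = 0.0546), and was -2.82 on its second probe set. The count of 6 lower was 4 without LPS-once B or with the letters A and B only, and 8 without restimulated A. Traf5, among the 6 at -1.2, kept its call under 8 of 21 alternatives. On its second probe set Traf5 was -0.01 (limma adjusted p = 0.922). The higher call was that of Ripk3, a kinase gene of the necroptosis pathway also named after its values were seen, at 1.05 ± 0.25 (limma adjusted p = 0.0212). It was not called without LPS-once C, at 0.77, without restimulated A, at 1.02, or without restimulated B, at 0.91 (limma adjusted p of 0.0552 to 0.0721). The signalling list's median log2 value was 0.329 in the first response, -0.0622 in the second, -0.72 in the difference and -0.533 in the level after LPS. Mlkl, which carries out necroptosis, had 676, 891 and 433 on the pretreated arrays, against 152, 277 and 140 on the untreated arrays, a difference of 1.73 ± 0.59 that was not called (limma adjusted p = 0.261). No gene of the 4 lists was called in the pretreatment effect, where limma called 0.297% of all genes higher and 0.319% lower. At such shares a count of 0 says little about the list genes. At an unadjusted p under 0.05 limma gave 7 list genes in the higher direction and 6 in the lower. No share of all genes is given at that threshold. With the letter as a block Tnfsf13b and Ripk3 were called in the pretreatment effect, Ripk3 at 1.18 (limma adjusted p = 0.00541, against 0.0743 without the block).

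**Figure D4:**
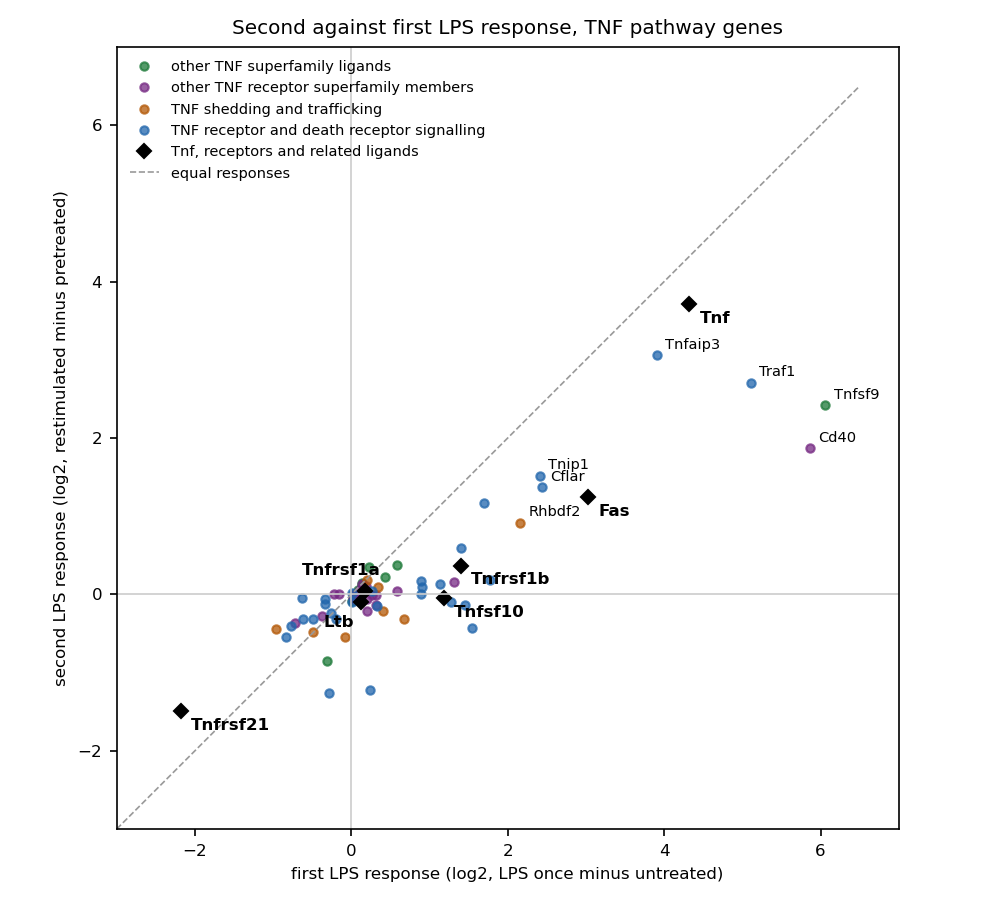
Second LPS response (restimulated minus pretreated, log2) against first LPS response (LPS once minus untreated, log2) for the 7 genes and the 71 measured genes of the 4 pathway lists, with a dashed line at equal responses. Tnf, at 3.71 against 4.32, lies closer to that line than Tnfsf9, at 2.42 against 6.06, and Cd40, at 1.87 against 5.86.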

How the data were processed

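Gene expression was measured on 12 Affymetrix arrays, 3 in each of 4 groups. The authors deposited linear intensities, a value for each probe set on each array, from RNA that the labels' protocols describe as extracted in TriFast and biotin-labelled. No source used here names the program, background correction or scaling behind them. That they are linear follows from the values, which are never negative and right-skewed. Of 45101 probe sets, 64 were controls, 34945 had 1 symbol, 932 several and 9160 none here. Platform symbols were updated by Entrez identifier through RefSeq (GRCm38.p6), which matched 34741. A gene was represented by its brightest single-symbol probe set over the 12 arrays, leaving 18193 genes. Probe sets with several symbols or none were left out. The number of arrays limits the precision.

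Values were taken as log2(intensity + 16) with no further normalization, which understates changes of dim genes. The limma package (3.58.1, R 4.3.3) fitted 4 group means over all 12 arrays, with 8 residual and 1.71 prior degrees of freedom, and was tested on simulated data. Errors after ± are standard errors for log2 changes and standard deviations for mean intensities.

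Members, lists and markers were chosen with earlier results of these data known, so their counts are descriptions. From each list up to 4 called genes with the largest log2 change were named in a comparison, or the 2 largest where fewer than 2 were called, and for each member the 3 genes with the highest r. The Ngp, Camp, Elane, Mpo, collagen and Pdgfra levels were singled out after they were seen. The IRF core was added to the motifs after the promoters had been read.

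The letters pair the samples: deviations from group means correlated at r = 0.252 to 0.661 in the 18 same-letter pairs of arrays, and at -0.486 to 0.0152 in the 36 different-letter pairs. Deviations cancel out within a group, so the negative values follow from the positive ones and are not separate evidence of pairing. The labels do not say what a letter stands for. The fit had no block, and the blocked fit was an alternative. The others were pseudocounts of 1 and 64, quantile normalization, a filter at a group mean of 100, the second brightest probe set, only the arrays compared, a trended robust prior, each array left out, and, added later, the letters A and B only. Promoters came from RefSeq, which held all 8 genes; 8 of the 79 list genes were not analysed here.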

Additional observations from a re-analysis of the deposited data

Results flagged for a closer look

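The difference between the responses was tested by limma as restimulated minus pretreated, against LPS once minus untreated. Among the 7 members and the 71 measured list genes, 7 were called in this test, all in the lower direction. For comparison, 1.45% of the 18193 measured genes had a lower call in the same test and 1.24% a higher one. The members and lists were chosen with earlier results known, so the count of 7 is a description. Among the members the called gene was Tnfrsf1b, at -1.03 on the log2 scale, where the second response was smaller in all 3 letters. Among the other pathway genes it was Cd40 at -3.99, the ligand gene Tnfsf9 at -3.64, Map3k5 at -1.61, Birc2 at -1.38, Rhbdf2 at -1.23 and Cflar at -1.07. Tnfsf9, Cd40 and Rhbdf2 kept this call under 20 of 21 alternatives each, Map3k5 under 17, Tnfrsf1b under 13, Birc2 under 12 and Cflar under 11. Not all of these alternatives were a separate check. For this difference the fit with only the arrays compared used all 4 groups and so repeated the main fit. Tnfsf9, Rhbdf2 and Birc2 had no second probe set, and that alternative reused their main one. With the letters A and B only, limma called none of the 7. Without untreated A, for example, Birc2 was -1.36 (limma adjusted p = 0.0718), Cflar -1.09 (0.059) and Map3k5 -1.53 (0.0522).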

How the results depend on the processing

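Across 21 alternatives the calls of Tnf, Tnfrsf1b, Fas and Tnfrsf21 in the first LPS response held, and Tnf's log2 value there ranged from 4.15 to 4.49. Not all of these could move the values. Tnf and Fas had only 1 probe set each. Leaving out a pretreated or restimulated array changed only the shared estimate of the spread for this comparison. Tnf in the second response was 3.71 with only the arrays compared (limma adjusted p = 0.0657) and 3.87 with the letters A and B only, and in the level after LPS -1.18 with A and B only, all 3 not called. The number of members called higher in the second response, 1 in the report, was 2 with the replicate block, with quantile normalization and with the filter at 100, where Fas was added, and 0 with only the arrays compared and with A and B only. The number called lower there, 1 in the report, was 0 with the second probe set, with only the arrays compared and with A and B only. In the difference between the responses the number called lower was 2 with the replicate block and with the filter, where Fas was added, and 0 with quantile normalization, the second probe set and A and B only. In the level after LPS, A and B only gave 1 higher (Tnfrsf21) and 0 lower. Leaving out each array gave 1 to 2 higher and 0 to 1 lower in the second response, 0 to 1 lower in the difference and 0 to 1 higher in the level after LPS. Fits without 1 array or without C have fewer samples, and with A and B only 2 arrays a group remained. The cause of the other changes was not tested. Among the members the replicate block changed only the calls of Fas and Tnfsf10 given above; among the list genes it added Mlkl in the first response (limma adjusted p = 0.0275), Daxx in the level after LPS (limma adjusted p = 0.0263), and those of Tnfsf13b, Ripk3 and Timp3 given above. Signs turned only for values that were not called, in Tnfrsf1a, Tnfsf10 and Ltb. The dim Ltb and Tnfsf10, near or below 100, limit what their values can show. Over all genes the second response, with 121 higher and 240 lower, had 1 and 0 with only the arrays compared, 182 and 150 with quantile normalization, 101 and 158 with a pseudocount of 64, 88 and 139 with the second probe set, 4 and 0 with A and B only, and 60 to 167 higher and 35 to 472 lower with an array left out. The difference between the responses, with 226 higher and 264 lower, had 133 and 221 with a pseudocount of 64, 102 and 198 with the second probe set, 77 and 55 with A and B only, and 76 to 486 higher and 125 to 294 lower with an array left out. The pretreatment effect, with 54 higher and 58 lower, had 100 and 101 with the replicate block, 84 and 89 with the filter, 84 and 65 with quantile normalization, 37 and 35 with a pseudocount of 64, 15 and 20 with A and B only, and 27 to 78 higher and 26 to 78 lower with an array left out. The level after LPS, with 457 higher and 584 lower, had 254 and 344 with only the arrays compared, 274 and 480 with a pseudocount of 64, 297 and 498 with the second probe set, 483 and 333 with A and B only, and 309 to 739 higher and 438 to 656 lower with an array left out. Of 840 counts over the pathway lists under the alternatives, 54 moved by more than 1.5 times.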
